A study of Mus musculus with 18 samples.

Results

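The TGF-beta ligands, receptors and Smads described here are 10 genes taken by their symbols: the ligands *Tgfb1*, *Tgfb2* and *Tgfb3*, the receptors *Tgfbr1*, *Tgfbr2* and *Tgfbr3*, and the intracellular mediators *Smad2*, *Smad3*, *Smad4* and *Smad7*. All 10 were found with 1 entry each and no failed estimate, among 23328 genes kept. Their expression was compared between the livers of 9 wild-type (WT) mice and 9 whole body *Gpr180* knockout (*Gpr180*KO) mice, with 1 poly(A) RNA library per mouse. All mice were male, 20 weeks old and fed a high-fat diet (HFD). Both genotypes have a C57BL/6 background, and the *Gpr180*KO allele was made in C57BL/6J eggs with CRISPR/Cas9 by deleting exon 6, which shifts the reading frame. The deletion is present in every cell of the animal, so a difference in liver RNA cannot be assigned to a liver cell type by the design. Livers of mice on normal diet were not analysed here.

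TGF-beta ligands are secreted in a latent form, and once released they bring the receptors encoded by *Tgfbr2* and *Tgfbr1* together. *Tgfbr2* then phosphorylates *Tgfbr1*, which phosphorylates *Smad2* and *Smad3*, and these enter the nucleus with *Smad4*, while *Smad7* is induced by the pathway and blocks it. In the liver the pathway is best known for driving stellate cells to make collagen matrix, and hepatocytes, endothelial cells and macrophages also carry its components. RNA levels do not measure the phosphorylation through which the signal runs. In RNA of whole liver, fewer cells of a type and less RNA per cell cannot be told apart.

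Of the 8 genes abundant enough for the main comparison, *Tgfbr2* was the only 1 called different between genotypes. Its level in *Gpr180*KO livers was 60.5% of the WT mean, and it was lower in 9 of 9 *Gpr180*KO livers than that mean. The means of the ligands *Tgfb2*, which is expressed at a far lower level, and *Tgfb1* were 48.3% and 66.5% of those in WT livers, and they passed or missed the threshold depending on the settings given with each below. *Smad3* and *Smad4*, at 92.5% and 97.2% of the WT means, differed by less than the spread between mice.

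Values are FPKM, the fragments of a gene per length of transcript and per number of mapped reads, as the authors deposited them. This unit is per length, so levels of different genes can be set side by side. Differences are those of mean log2(FPKM + 0.1), *Gpr180*KO minus WT, from a limma fit to the 10835 genes whose FPKM averaged 1 or more across the 18 mice. Genes were called at a Benjamini-Hochberg adjusted p under 0.05 over all genes tested. On this scale, 4.28% of all genes tested were called lower and 0.452% higher in *Gpr180*KO livers, that is 464 and 49 genes. The median gene differed by -0.13. Whether this lies in the scale or in the RNA of the livers was not tested. Results are therefore also given after median-of-ratios scaling between libraries, which brought the median gene to -0.01. With that scaling 1.58% of genes were called lower and 1.03% higher (171 and 112 genes). The 95% confidence bounds that accompany each FPKM in the files lay between 7.29% and 12.4% of the value on either side for *Tgfbr2*, but between 32.3% and 76.6% for *Tgfb2*, so the level of the latter is known much less well in each mouse.

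*Gpr180*, the deleted gene, averaged 6.79 ± 1.99 FPKM in WT against 1.60 ± 0.37 FPKM in *Gpr180*KO livers (SD, n = 9 each), with no overlap, as the labels have it. Sample titles come in 2 styles, called here series 1, with 4 mice of each genotype, and series 2, with 5 of each. The labels do not say what they mean. The *Gpr180*KO mouse KO51 stood apart: its FPKM summed to 718746, against a median of 570149 over all mice, its size factor of 0.85 was below the 0.916 to 1.09 of the others, and the summed FPKM of its hepatocyte markers, 32700, was the highest of all. KO51 had the lowest value of all 18 mice for 6 of the 10 genes, namely *Tgfb2*, *Tgfbr1*, *Tgfbr2*, *Smad2*, *Smad3* and *Smad4*. Calls that changed without it are given both ways.

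**Figure D1:**
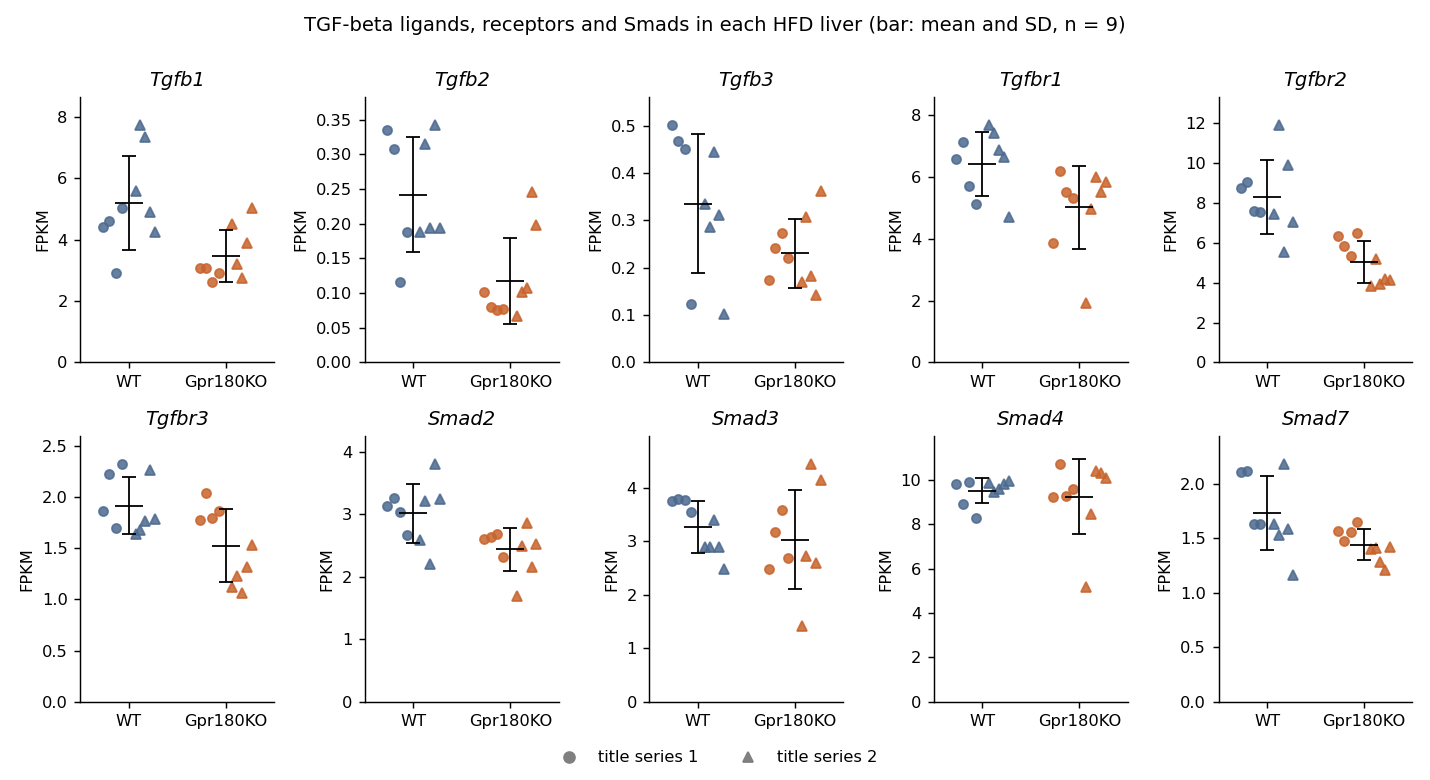
FPKM (vertical axis, from 0) of the 10 genes in each liver, WT on the left and *Gpr180*KO on the right of each panel; circles are mice of title series 1 and triangles of series 2, and bars show mean and SD (n = 9 per genotype). The genotypes overlap in all 10 panels; in that of *Tgfbr2*, 6 *Gpr180*KO livers lie below the lowest WT liver and 8 WT livers above the highest *Gpr180*KO liver.

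By level, the genes fell into a similar order in both genotypes. In WT livers *Smad4* was highest (9.52 ± 0.57 FPKM, SD, n = 9), followed by *Tgfbr2* (8.31 ± 1.85), *Tgfbr1* (6.43 ± 1.03), *Tgfb1* (5.20 ± 1.52), *Smad3* (3.28 ± 0.49), *Smad2* (3.02 ± 0.47), *Tgfbr3* (1.92 ± 0.27) and *Smad7* (1.73 ± 0.34). *Tgfb3* (0.34 ± 0.15) and *Tgfb2* (0.24 ± 0.08) were far below. Of the 9 pairs of neighbours in this order, the values of only 1, *Smad7* and *Tgfb3*, were separate over all WT mice, and those of the other pairs overlapped. In *Gpr180*KO livers the order of the means was the same, and again only *Smad7* and *Tgfb3* were separate. *Tgfbr2* and *Tgfbr1*, the chains of the signaling receptor, had nearly the same mean there (5.03 and 5.01 FPKM).

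A ratio of 2 genes within a mouse does not depend on the scaling between libraries. *Tgfbr2* exceeded *Tgfbr1* in 7 of 9 WT livers and in 4 of 9 *Gpr180*KO livers. The ratio of *Tgfbr2* to the co-receptor *Tgfbr3* was 4.39 ± 1.15 (range 3.13 to 7.06) in WT and 3.34 ± 0.47 (range 2.70 to 4.21) in *Gpr180*KO livers (SD, n = 9). *Smad4* exceeded *Smad3* in all mice, by 2.98 ± 0.57 times in WT and 3.19 ± 0.60 times in *Gpr180*KO livers.

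The promoters of the 3 genes with the largest differences are shown because they differ in base composition and motifs, although the choice of these genes was made with their values known. The sequences are the 250 bases before and 50 bases after the start in RefSeq (GRCm38.p6), printed 5′ to 3′ on the strand of the gene: chr7:25686752-25687051, plus strand, for *Tgfb1*, chr1:186705940-186706239, minus strand, for *Tgfb2*, and chr9:116175314-116175613, minus strand, for *Tgfbr2*. Capitals mark matches on either strand to 5 short motifs: the GC box (GGGCGG), the CCAAT box (CCAAT), the TATA box (TATAAA), the Smad box (GTCTG) and an AP-1 site (TGANTCA). None of the 5 contains another.
Tgfb1 promoter: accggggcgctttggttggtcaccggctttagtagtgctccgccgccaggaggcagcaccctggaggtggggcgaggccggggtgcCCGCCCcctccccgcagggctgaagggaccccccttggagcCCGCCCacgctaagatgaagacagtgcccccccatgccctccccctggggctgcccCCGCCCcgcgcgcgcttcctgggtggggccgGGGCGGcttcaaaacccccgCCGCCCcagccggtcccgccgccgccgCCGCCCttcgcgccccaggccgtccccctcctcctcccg
Tgfb2 promoter: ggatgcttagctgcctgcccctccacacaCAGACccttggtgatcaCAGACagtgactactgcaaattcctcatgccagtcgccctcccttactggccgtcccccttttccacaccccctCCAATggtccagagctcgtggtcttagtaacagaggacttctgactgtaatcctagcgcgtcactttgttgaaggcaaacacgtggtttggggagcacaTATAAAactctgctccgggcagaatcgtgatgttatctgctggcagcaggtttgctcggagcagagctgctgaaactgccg
Tgfbr2 promoter: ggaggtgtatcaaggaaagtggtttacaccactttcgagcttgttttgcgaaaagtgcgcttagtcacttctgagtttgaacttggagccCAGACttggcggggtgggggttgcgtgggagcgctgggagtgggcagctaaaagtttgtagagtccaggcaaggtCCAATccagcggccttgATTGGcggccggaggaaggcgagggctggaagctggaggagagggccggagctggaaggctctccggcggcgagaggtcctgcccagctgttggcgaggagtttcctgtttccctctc
In the *Tgfb1* sequence, 77.0% of the bases were G or C, and it held 6 GC boxes and none of the other motifs. The *Tgfb2* sequence (54.3% G or C) held 1 TATA box, 1 CCAAT box and 2 Smad boxes, and that of *Tgfbr2* (59.0%) held 2 CCAAT boxes and 1 Smad box. Among 32851 promoters of the same length, 35.7% held a GC box, 37.4% a CCAAT box, 13.6% a TATA box, 49.6% a Smad box and 7.81% an AP-1 site, and the median G and C content was 52.7%. Motif matches of this kind are common, and they describe the letters, not binding. Entries for 5 of the 10 genes were matched, and those of *Tgfbr1* and *Smad3* are not printed.

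Among the ligands, *Tgfb1*, the main TGF-beta of the liver, ranged from 2.90 to 7.74 FPKM (median 4.91) in WT livers and from 2.63 to 5.05 FPKM (median 3.08) in *Gpr180*KO livers. The highest WT livers were W133 and W134, with 7.74 and 7.36 FPKM, and the lowest was W319, which at 2.90 FPKM lay within the *Gpr180*KO range. All 9 *Gpr180*KO livers were below the WT mean, but only 2 were below the lowest WT liver. The log2 difference of -0.55 (standard error 0.17) missed the threshold over all genes (limma with Benjamini-Hochberg adjustment, adjusted p = 0.0573), while a two-sided exact permutation test of this gene alone, 1 of 10 such tests, gave p = 0.00716. Without KO51, in which *Tgfb1* was among the higher of the *Gpr180*KO values (4.53 FPKM), the difference was -0.61 and limma called it (adjusted p = 0.0391). It was likewise called without W319 (adjusted p = 0.0293), without W157 (0.0442) and without KO56 (0.0421), and in no other fit that left out 1 mouse. The highest limma adjusted p of those fits was 0.126, without W133 (-0.48). Of all genes, 6.36% were called lower without KO51, 3.49% without W319, 7.79% without W157 and 3.17% without KO56, against 4.28% with all mice. After median-of-ratios scaling the difference of *Tgfb1* was -0.43 and was not called (limma adjusted p = 0.187). *Tgfb1* has 7 exons and lies on the plus strand of chr7:25687002-25704996 (GRCm38).

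*Tgfb2*, a ligand whose expression in adult liver is low, had 0.12 to 0.34 FPKM (median 0.19) in WT livers and 0.07 to 0.24 FPKM (median 0.10) in *Gpr180*KO livers. In 7 of 9 *Gpr180*KO livers it was below the lowest WT liver, and KO54 and KO56, at 0.24 and 0.20 FPKM, were the other two. The mean was below the FPKM minimum of the main comparison. With that minimum lowered to 0.1, which left 14016 genes of which 5.54% were called lower, the log2 difference was -0.66 (standard error 0.19, limma adjusted p = 0.0438). The same fit after median-of-ratios scaling gave -0.58 and no call (adjusted p = 0.0902). The two-sided exact permutation p was 0.00259 as deposited and 0.00568 after scaling. The pseudocount of 0.1 is close to these levels, so the log2 difference understates the ratio of the means. A predicted gene on the opposite strand, *Gm29491*, overlaps exons of *Tgfb2* (chr1:186623186-186705992, minus strand), and whether the counting used strand is not given in the sources used here.

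*Tgfb3* ranged from 0.10 to 0.50 FPKM (median 0.33) in WT and from 0.14 to 0.36 FPKM (median 0.22) in *Gpr180*KO livers, so the WT range enclosed the *Gpr180*KO range. The 3 highest values were those of the WT mice W317, W318 and W319, and the lowest of all was that of WT mouse W157. With the lowered minimum the log2 difference was -0.34, with a 95% confidence interval of -0.80 to 0.12 (limma adjusted p = 0.357). Exons of *Tgfb3* (chr12:86056743-86079041, minus strand) are overlapped by *Gm37804* and *Gm48008* on the opposite strand.

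Among the receptors, *Tgfbr2*, which encodes the type II receptor that binds the ligand, had 5.54 to 11.9 FPKM (median 7.59) in WT and 3.85 to 6.49 FPKM (median 5.18) in *Gpr180*KO livers. In 6 of 9 *Gpr180*KO livers it was below the lowest WT liver, and 8 of 9 WT livers were above the highest *Gpr180*KO liver. The overlap came from 1 WT mouse, W134, whose 5.54 FPKM lay below the 6.49, 6.35 and 5.82 FPKM of the *Gpr180*KO mice KO322, KO319 and KO320. The log2 difference was -0.71 (standard error 0.14, 95% confidence interval -1.0 to -0.42, limma adjusted p = 0.0132), and the two-sided exact permutation p was 0.000206. After median-of-ratios scaling the difference was -0.59 (adjusted p = 0.0216) and the exact permutation p was 0.00037. It was called in every fit that left out 1 mouse, with log2 differences between -0.78 and -0.64, the highest limma adjusted p being 0.0338 without W317. *Tgfbr2* has 7 exons and lies on the minus strand of chr9:116087695-116175363, with no annotated gene overlapping its exons.

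*Tgfbr1*, the kinase that *Tgfbr2* activates, had 4.70 to 7.67 FPKM (median 6.64) in WT and 1.91 to 6.20 FPKM (median 5.52) in *Gpr180*KO livers. The lowest value, 1.91 FPKM, was that of KO51, and the next, 3.85 FPKM, that of KO319, while the other 7 *Gpr180*KO livers lay between 4.95 and 6.20 FPKM, inside the WT range. It differed by -0.40 on the log2 scale (95% confidence interval -0.78 to -0.03) and was not called (limma adjusted p = 0.191). Without KO51 it was -0.24 (adjusted p = 0.173), and after scaling -0.28 (adjusted p = 0.403). The gene lies on chr4:47353305-47414924, plus strand.

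*Tgfbr3*, or betaglycan, a co-receptor that presents ligand to *Tgfbr2*, had 1.64 to 2.32 FPKM (median 1.79) in WT and 1.06 to 2.04 FPKM (median 1.53) in *Gpr180*KO livers. In 5 *Gpr180*KO livers it was below every WT liver, and all 5 belonged to series 2. The other 4 lay between 1.78 and 2.04 FPKM, within the WT range. The log2 difference was -0.33 (95% confidence interval -0.61 to -0.05, limma adjusted p = 0.157), and after scaling it was -0.21 (adjusted p = 0.362). Its exons (chr5:107106570-107289595, minus strand) are overlapped by *Gm43422* on the same strand, so reads of the 2 genes could have been shared between them.

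**Figure D2:**
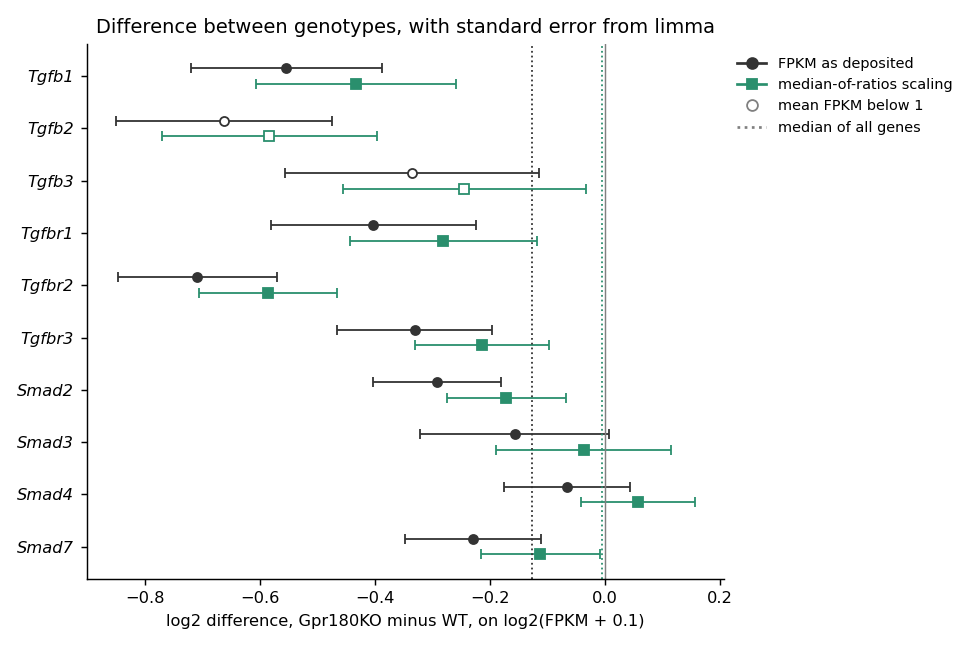
Log2 difference (horizontal axis, *Gpr180*KO minus WT on log2(FPKM + 0.1)) of the 10 genes with its standard error from limma, as deposited (black circles) and after median-of-ratios scaling (green squares); open symbols are genes with a mean FPKM below 1, fitted with a minimum of 0.1, and dotted lines mark the median of all genes under each scaling. *Tgfbr2*, *Tgfb2* and *Tgfb1* lie farthest to the left under both, and *Smad4* crosses 0 with scaling, from -0.07 to 0.06.

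The Smads differed less. *Smad2*, which carries the signal of the receptor to the nucleus, had 2.20 to 3.80 FPKM (median 3.14) in WT and 1.70 to 2.86 FPKM (median 2.53) in *Gpr180*KO livers, on chromosome 18. All 9 *Gpr180*KO livers were below the WT mean, yet only 2, KO51 and KO54, were below the lowest WT liver. The log2 difference was -0.29 (95% confidence interval -0.52 to -0.06, limma adjusted p = 0.129). It was called in 1 of 34 alternatives, weights per library (-0.25, adjusted p = 0.036), where 10.7% of all genes were called lower. After scaling the difference was -0.17 (adjusted p = 0.423).

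*Smad3*, the partner of *Smad2* that binds DNA directly, had 2.49 to 3.80 FPKM (median 3.40) in WT and 1.42 to 4.44 FPKM (median 2.72) in *Gpr180*KO livers. The *Gpr180*KO livers held both the lowest value, 1.42 FPKM in KO51, and the highest values, 4.44 FPKM in KO53 and 4.14 FPKM in KO56. On the log2 scale it differed by -0.16, with a 95% confidence interval of -0.50 to 0.19 (limma adjusted p = 0.581), and without KO51 it was -0.04 (adjusted p = 0.898). The gene lies on chr9:63646767-63757994, minus strand.

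*Smad4*, the common partner of the receptor-activated Smads, was the most even of the 10 in WT livers, with 8.28 to 9.96 FPKM (median 9.81) and a coefficient of variation of 5.97%. In *Gpr180*KO livers it had 5.17 to 10.7 FPKM (median 9.59). KO51 was at 5.17 FPKM, and the other 8 *Gpr180*KO livers lay between 8.47 and 10.7 FPKM. The log2 difference was -0.07 (95% confidence interval -0.29 to 0.16, limma adjusted p = 0.735). Its sign turned to 0.03 without KO51 and to 0.06 with median-of-ratios scaling, and no setting led to a call.

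*Smad7*, the inhibitory Smad that the pathway induces, had 1.16 to 2.18 FPKM (median 1.63) in WT and 1.21 to 1.65 FPKM (median 1.42) in *Gpr180*KO livers. WT livers varied more, with W317, W318 and W134 at 2.11, 2.12 and 2.18 FPKM and W157 the lowest of all at 1.16 FPKM. All 9 *Gpr180*KO livers were below the WT mean, and none was below the lowest WT liver. The difference was -0.23 on the log2 scale (95% confidence interval -0.48 to 0.02, limma adjusted p = 0.262), and -0.11 after scaling (adjusted p = 0.634). *Smad4* and *Smad7* also lie on chromosome 18.

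Of the 8 genes whose FPKM averaged 1 or more, limma thus called 1 lower and 0 higher, beside 4.28% and 0.452% of all genes. At an unadjusted p under 0.05 it had 5 lower and 0 higher, a cut at which 19.6% of all genes tested were lower. The median log2 difference of the 8 was -0.31, against -0.13 for all genes tested, and after scaling -0.19 against -0.01. In the exact permutation tests, 7 of the 10 genes had p under 0.05 as deposited and 3 (*Tgfb1*, *Tgfb2* and *Tgfbr2*) after scaling. The exact tests were not run over all genes, so no share of all genes can be set beside these counts. Whether the counts exceed those of other genes was therefore not tested.

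**Figure D3:**
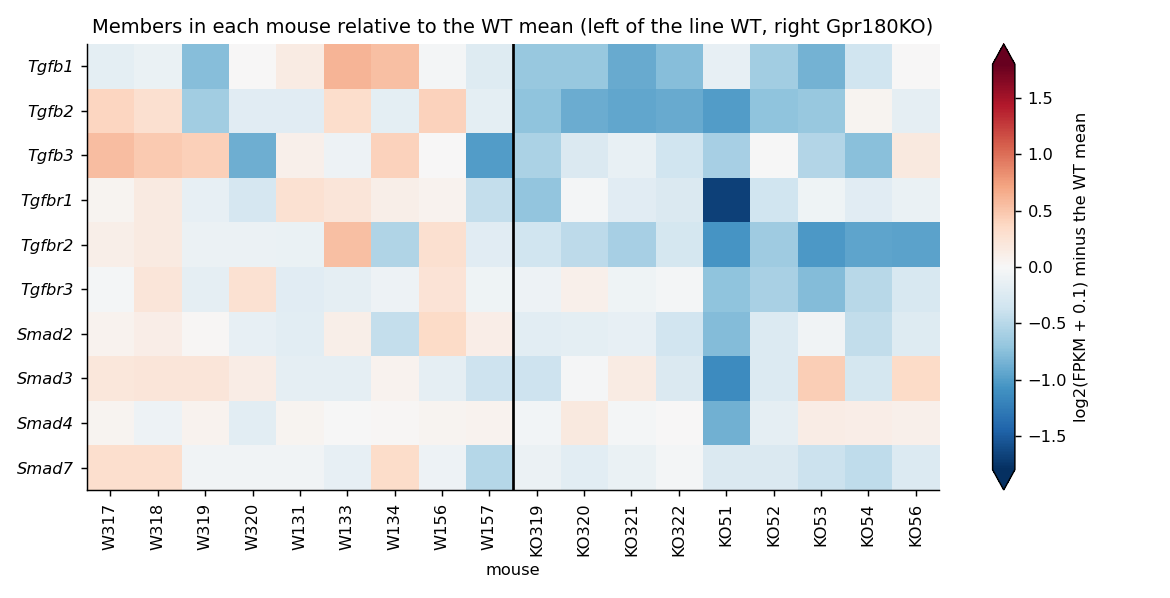
Log2(FPKM + 0.1) of the 10 genes (vertical axis) in each mouse (horizontal axis) minus the WT mean of the gene, blue below and red above it, with WT mice left of the line and *Gpr180*KO mice right of it. *Tgfbr2* is blue in all 9 *Gpr180*KO mice, and KO51 is dark blue for *Tgfb2*, *Tgfbr1*, *Tgfbr2*, *Smad3* and *Smad4* together.

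The 2 title series were compared because they may be separate experiments. As deposited, *Tgfbr2* was separate between genotypes in each of them. In series 1 the WT livers had 7.55 to 9.07 FPKM and the *Gpr180*KO livers 5.36 to 6.49 FPKM. In series 2 they had 5.54 to 11.9 and 3.85 to 5.18 FPKM. After median-of-ratios scaling the genotypes overlapped in series 2, with 5.3 in WT mouse W134 and 5.6 in *Gpr180*KO mouse KO52. As deposited, 1.18% of all genes tested (128 genes) were lower in every *Gpr180*KO than in every WT mouse within each series. *Tgfbr2* was the only 1 of the 8 among them. Its log2 difference was -0.45 in series 1 (limma adjusted p = 0.0349) and -0.92 in series 2 (adjusted p = 0.0896), where 0 of all genes passed the threshold, although 1783 were lower and 236 higher at an unadjusted p under 0.05. *Tgfbr3* was separate in series 2 alone as deposited, with a log2 difference of -0.52 against -0.10 in series 1. After scaling it overlapped there, with 1.6 in *Gpr180*KO mouse KO56 and 1.55 in WT mouse W133. *Tgfb2*, below the FPKM minimum, was separate in series 1 alone, at 0.116 to 0.335 FPKM in WT and 0.0749 to 0.102 FPKM in *Gpr180*KO livers. The share of all genes separate in a single series is not given here. The interaction of genotype and series gave a limma p of 0.0646 for *Tgfbr2* and 0.0536 for *Tgfbr3* before adjustment, and adjusted p of 0.667 and 0.654. For no gene was an interaction called, with 833 genes at an unadjusted p under 0.05. With the series as a covariate, *Tgfb1* was called beside *Tgfbr2* (-0.55, limma adjusted p = 0.0171), while 9.52% of all genes were called lower. Size factors of *Gpr180*KO livers were 1.0 to 1.02 in series 1 and 0.85 to 0.958 in series 2, against 1.04 to 1.09 and 0.961 to 1.09 in WT livers. The size factors thus moved with both genotype and series. Their part in the differences was not tested beyond the scaled values given here.

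The rest of the pathway was described by 5 lists. Of the 71 genes of these lists that were tested, limma called 17 lower and none higher in *Gpr180*KO livers, beside 4.28% of all genes called lower, and the total fell to 10 with median-of-ratios scaling, beside 1.58%. It depended on single mice: it was 7 without W317, 8 without W318, 9 without W320, 6 without W133, 11 without W156, 27 without W157, 10 without KO52, 8 without KO53 and 8 without KO54. The share of all genes called lower moved in the same way, from 1.07% without W133 to 7.79% without W157. In series 2 alone no gene of these lists was called, as for all genes.

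Among genes that hold or release latent ligand, 3 of 8 tested were lower (1 without W133, 5 without W157), beside 4.28% of all genes. The list median was -0.40. *Thbs1*, thrombospondin 1, an activator of latent TGF-beta, had 0.31 to 3.71 FPKM in WT and 0.16 to 0.73 FPKM in *Gpr180*KO livers (log2 difference -1.81, limma adjusted p = 0.0132). *Mmp2*, a gelatinase, differed by -0.97 (adjusted p = 0.0324), and both were called after scaling. *Itgav*, the integrin alpha chain that binds the latent complex, differed by -0.55 (adjusted p = 0.0394) and lost the call after scaling (adjusted p = 0.0876).

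Of 10 co-receptors and receptor regulators tested, 2 were lower (1 without W133, 3 without W157), beside 4.28% of all genes. The median was -0.22. *Fkbp1a*, whose product binds the type I receptor, had 44.1 ± 7.95 FPKM in WT and 29.7 ± 5.44 FPKM in *Gpr180*KO livers (SD, n = 9), a log2 difference of -0.57 (limma adjusted p = 0.0181, and 0.0475 after scaling). *Vasn*, vasorin, a protein that binds TGF-beta, differed by -0.44 (adjusted p = 0.0373, and 0.0913 after scaling).

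Of 12 Smad inhibitors, co-repressors and turnover factors tested, limma called none, and 3 were lower at an unadjusted p under 0.05, beside 19.6% of all genes. It called 1 when KO51, KO56, KO321, W131 or W157 was left out, and 1 with the title series as a covariate. With the FPKM minimum of 0.1 it called 1 of 14 tested, beside 5.54% of all genes. In the main fit the lowest p was that of *Tgif1*, a co-repressor of Smads, at -0.34 (limma adjusted p = 0.0511). The feedback genes *Smad6* and *Skil* differed by -0.23 and -0.28 (adjusted p = 0.385 and 0.40), and *Pmepa1*, below the FPKM minimum, had 0.84 ± 0.23 FPKM in WT and 0.60 ± 0.15 FPKM in *Gpr180*KO livers (SD, n = 9). The list median of -0.19 was near the -0.13 of all genes, and it was -0.07 after scaling and -0.11 without KO51.

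In the BMP and activin branch 2 of 19 genes tested were lower, beside 4.28% of all genes, with a median of -0.25. Without KO51 there were 3, with a median of -0.13. There were 0 when W133, W317, W318, W320, KO52, KO53 or KO54 was left out. In series 1 alone, and also with weights per library, 1 gene of the list was called higher. The 2 called lower in the main fit were *Gdf15* and *Gdf2*. *Gdf15*, a stress-induced secreted factor distantly related to TGF-beta, differed by -1.21 (limma adjusted p = 0.0302, and 0.0472 after scaling). *Gdf2*, which encodes BMP9, differed by -0.40 (adjusted p = 0.0384, and 0.0923 after scaling).

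Of 22 TGF-beta target genes tested, 10 were lower, beside 4.28% of all genes, and 6 after scaling, with a median of -0.63 (-0.51 after scaling), and the means of all 22 were below WT as deposited. *Postn*, periostin, a matrix protein, had 4.25 to 13.3 FPKM in WT and 3.04 to 4.6 FPKM in *Gpr180*KO livers (log2 difference -1.12, limma adjusted p = 0.00631). The fibrillar collagens *Col3a1* and *Col1a1* differed by -1.73 (adjusted p = 0.0132) and -1.99 (adjusted p = 0.0161), and *Timp1*, an inhibitor of matrix proteases, by -1.98 (adjusted p = 0.0159). *Ctgf*, a matrix-associated growth factor that is widely used as a readout of the pathway, was not called (-0.50, limma adjusted p = 0.295). The number called lower was 9 without KO51, 4 without W133 and 16 without W157, and 0 in series 2 alone. These genes answer to other signals as well, and several are made mainly by fibroblasts.

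**Figure D4:**
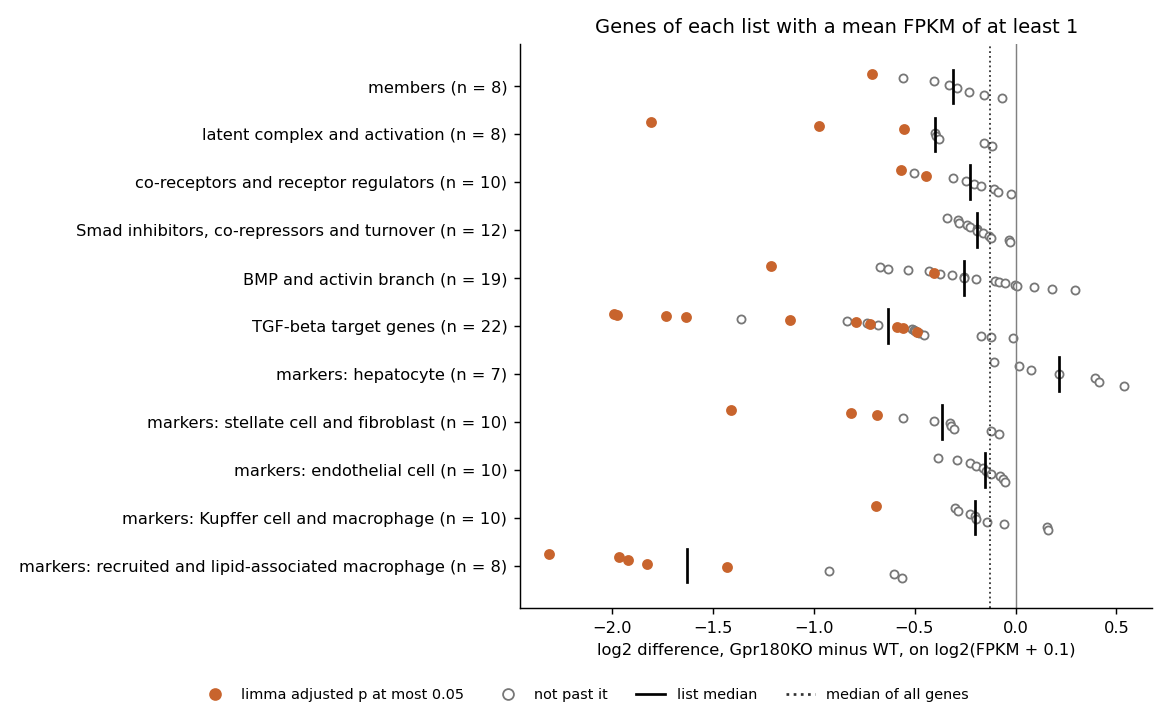
Log2 difference (horizontal axis) of each gene averaging 1 FPKM or more in the lists named on the left, with filled points for genes called by limma, black bars for list medians and a dotted line for the median of all genes (-0.13). The TGF-beta target genes and the markers of recruited and lipid-associated macrophages reach farther to the left than the 8 of the 10 pathway genes shown in the top line, whose median is -0.31. The lists of latent complex and activation, of the BMP and activin branch and of stellate cell and fibroblast markers also hold genes farther to the left than those 8.

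Some markers of cell types that carry the pathway also differed between genotypes. Of 10 markers of stellate cells and fibroblasts, 3 were called lower (*Dcn*, *Lum* and *Pdgfrb*), beside 4.28% of all genes, and the median was -0.36. After scaling 3 were called, with a median of -0.25, and in series 2 alone 0 were, as for all genes. The summed level of this list was 167 to 274 FPKM in WT and 110 to 163 FPKM in *Gpr180*KO livers, with no overlap. *Dcn* made up most of that sum, with 116 to 196 and 63.8 to 103 FPKM, and without it the sums overlapped, at 51.4 to 92.7 and 41.4 to 64.2 FPKM. *Lrat*, which marks quiescent stellate cells, was not called (-0.31, limma adjusted p = 0.446). Neither were *Des*, *Reln*, *Hand2*, *Colec11*, *Rgs5* and *Ngfr*. Of 8 markers of recruited and lipid-associated macrophages tested, 5 were lower (median -1.63), beside 4.28% of all genes. There were 3 after scaling, 1 without W133 and 8 without W157. The list had sums of 95.1 to 403 FPKM in WT and 81.2 to 161 FPKM in *Gpr180*KO livers. The part of these cell types in the level of *Tgfbr2* or *Tgfb1* was not tested.

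Other markers moved less. None of 10 endothelial markers was called (median -0.15, sums of 129 to 211 FPKM in WT and 122 to 186 FPKM in *Gpr180*KO livers). Of 10 Kupffer cell and macrophage markers 1, *Cd68*, was called lower, beside 4.28% of all genes (list median -0.20, sums of 225 to 493 and 244 to 374 FPKM). Hepatocyte markers were not called, with a median of 0.21 for the 7 of 8 that had values (0.09 without KO51), and sums of 17100 to 21900 FPKM in WT and 19600 to 32700 FPKM in *Gpr180*KO livers. Both biliary markers tested were lower, beside 4.28% of all genes: *Spp1*, which the macrophage list also holds, and *Sox9*, which lost its call after scaling (limma adjusted p = 0.12). Of this list of 6 markers, 2 of 5 tested were lower with the FPKM minimum of 0.1, beside 5.54% of all genes. In the main fit 1 was lower without W133, without W317 or without KO52, and 0 in series 2 alone. No lymphocyte marker reached the FPKM minimum, and of adipocyte and platelet markers 0 of 2 and 0 of 1 tested were called. *Plin1* was listed at 0 in all mice, and *Adipoq* and *Lep* stayed under 0.1 FPKM.

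The genes whose levels over the 18 mice were most like those of each pathway gene were sought among all genes tested, after median-of-ratios scaling and with the mean of each genotype removed. This likeness is a Pearson r over 18 libraries, given as a description. For *Tgfb1* they were *Tmem238*, *Sox18* and *Cebpd* (r = 0.90, 0.892 and 0.89), and for *Tgfbr2* they were *Slc22a3*, *Hmgcs1* and *Slc5a6* (0.898, 0.89 and 0.853). For *Tgfbr1* they were *Nek7*, *Pik3c2a* and *Cald1* (0.951, 0.942 and 0.942), and for *Tgfbr3* they were *Btrc*, *Tbc1d16* and *Ddah1* (0.803, 0.79 and 0.783). Among the Smads, *Smad2* was nearest to *Fmo4*, *Srbd1* and *Cyp3a25* (0.811, 0.797 and 0.796), and *Smad3* to *Gnai3*, *Fmo5* and *Rabep1* (0.894, 0.886 and 0.88). *Smad4* was nearest to *Dmtf1*, *Mettl4* and *Atrn* (0.948, 0.944 and 0.94), and *Smad7* to *Tlr1*, *Fas* and *2900076A07Rik* (0.825, 0.821 and 0.814). With FPKM as deposited, 15 of these 24 genes were named again. KO51 was low for *Tgfbr1*, *Smad3* and *Smad4* together and weighs on their values of r.

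Between the pathway genes, the same measure was highest for *Tgfbr1* with *Smad4* (r = 0.789), *Tgfbr1* with *Smad3* (0.692) and *Smad3* with *Smad4* (0.594), all 3 genes being lowest in KO51. For *Tgfbr2* and *Tgfbr1*, the chains of the signaling receptor, r was 0.047. For the ligand *Tgfb1* and its receptor *Tgfbr2* it was -0.255. *Smad7* and *Smad2* had the most negative r, -0.505.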

How the data were processed

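Liver poly(A) RNA of 18 mice was sequenced by the authors as single reads and aligned to mm10 (GRCm38) with TopHat, per the labels. They deposited 1 table of FPKM per mouse with its confidence bounds; the study describes FPKM as output after that alignment application, and the gene annotation is not given in the sources used here. The files hold no read totals, and the methods give depth only as an approximate range, so the reads behind each value are unknown. FPKM of entries that share a symbol were summed, and 24 genes with 190 failed values were left out. Limma 3.58.1 in R 4.3.3 (lmFit, eBayes with trend) was fitted to log2(FPKM + 0.1) of genes averaging 1 FPKM or more, and p were adjusted after Benjamini and Hochberg. Exact permutation tests used all 48620 divisions into 9 and 9 mice. On simulated data of 10835 genes with independent noise, 182 of 200 genes changed by 1 on the log2 scale were recovered. The member genes all differed by less than that, so recovery at the size of their differences was not tested. Alternatives changed the pseudocount, FPKM minimum, scaling, title series, variance model and mice. Member genes, gene lists and tests were chosen with earlier results of these data known. Named were all member genes, *Gpr180*, the 4 genes of lowest p called in each pathway list, common response or feedback genes (1 of them is not reported here) and the 3 genes most like each member. The markers named were chosen after their values were seen. Positions of genes come from GENCODE release 21 of the mouse and promoters from RefSeq.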

Additional observations from a re-analysis of the deposited data

Results flagged for a closer look

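*Smad4* in the *Gpr180*KO livers was the result with a mouse far from its group: KO51 had 5.17 FPKM, and the other 8 mice had 8.47 to 10.7 FPKM. The gap to the nearest mouse was 0.596 of the whole range of the group, above Dixon's 95% critical value for 9 samples. It was 1 of 20 groups examined (10 genes in each genotype), and chance gives about 1 in 20.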

How the results depend on the processing

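*Tgfbr2* was called lower in 34 of 35 alternatives, the exception being series 2 alone (-0.92, limma adjusted p = 0.0896). None of the 8 genes was called higher in any of them. The number called lower, 1, was 2 with an FPKM minimum of 0.1, with no minimum, with TPM scaling and with the title series as a covariate, 3 with weights per library, 0 in series 2 alone and 1 to 2 when each mouse was left out. Of all genes, 4.28% were called lower in the main fit, 5.54% with the minimum of 0.1 and 3.4% with none. The share was 5.04% with TPM scaling, 9.52% with the covariate and 10.7% with weights. The gene gained was *Tgfb2* with the lower minimums and otherwise *Tgfb1*, which was called in 7 of 34 alternatives, plus *Smad2* with weights. The count over the pathway lists, 17, was 10 with a minimum of 5, median-of-ratios scaling, 75th percentile scaling or median-of-ratios scaling without KO51 (chosen after seeing the data), 27 with the covariate, 0 in series 2 alone and 6 to 27 when each mouse was left out. The median of the 8 genes, -0.31, was -0.14 with median-of-ratios scaling without KO51. Exact tests under 0.05, which were not run over all genes, fell from 7 to 3 of 10 with median-of-ratios scaling. With FPKM as deposited, 15 of the 24 most like genes were named again. *Smad3* reversed to 0.065 with median-of-ratios scaling without KO51. *Smad4* reversed to 0.057 with median-of-ratios scaling, also with the covariate or with a minimum of 0.1 (the latter chosen after seeing the data), to 0.055 with 75th percentile scaling, 0.072 in series 1 alone, 0.045 with weights, 0.14 with median-of-ratios scaling without KO51 and 0.034 without KO51 as deposited, where leaving out each mouse gave -0.095 to 0.034. Apart from what the settings themselves change, the cause was not tested. No paired analysis was possible because the numbers in the titles name single animals, and although a pair of them occurs in both genotypes, these are different mice. FPKM give no read counts, so the precision of the low values of *Tgfb2* and *Tgfb3* is known only from the deposited bounds, up to 76.6% and 70.5% of the value.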
